A study of Mus musculus with 6 samples.

Results

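Integrins are receptors, each made of one alpha and one beta subunit, that span the plasma membrane and bind matrix proteins such as fibronectin outside the cell. Inside, talin binds the tail of the beta subunit, vinculin and the ILK complex join the cluster, and zyxin and VASP act where it meets actin stress fibers. In fibroblasts these clusters are the focal adhesions, through which the cell holds on to its matrix and pulls on it. The 10 genes described here were Zyx, Vcl, Tln1, Pxn, Itgb1, Itga5, Itgav, Itgb5, Ilk and Vasp, taken as the rows of the count table that carry the Entrez identifiers of these symbols. They are 10 of the 23725 genes in the table.

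The cells were 3T3-L1, a mouse fibroblast line that can be turned into adipocytes. In the EV group, about 2 M cells per plate received for 24 h the extracellular vesicles (EVs) shed by 200 M MLP29 cells, a mouse liver progenitor line, or on average 20 µg of EV protein. In the control group, the plates received what the same isolation gave from medium that had held no cells, and both groups were kept in medium with HEPES and serum depleted of vesicles. Each group had 3 plates, each treated with its own preparation and read as 1 RNA-seq library, labelled 1, 2 and 3 for control and 1, 2 and 4 for EV. The plates came from 1 cell line, so the spread within a group is that between plates and preparations.

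The libraries summed to between 508599 and 665465 counts, far below the sequencing depth stated for them, and what became of the other reads was not tested. In these totals the 10 genes together had between 435 and 541 counts in control and between 280 and 392 in EV. Their share was between 740.8 and 883.7 per 1000000 counts in control and between 550.5 and 623.2 in EV. This share is of raw totals, a scale on which the median log2 fold change of all genes tested was -0.12. Of 11 fibroblast markers, 9 had counts, and Lum and Fap were at 0 in every library. Of these 9, 6 fell by the test used below, as several adhesion genes did, where 14.4% of all genes tested were called lower. Thy1, Pdgfra and Pdgfrb did not pass it. The list summed to between 858 and 1182 counts in control and between 325 and 519 in EV, and its part in the results was not tested. Of 12 epithelial and liver progenitor markers chosen for the donor line, 8 were at 0 in every library, among them Alb, Afp, Krt8, Krt18 and Epcam. The list summed to between 16 and 20 counts in control and between 12 and 16 in EV. Sox9 had 9 to 13 counts in each library, and Met, Krt7 and Cdh1 had fewer. Whether the donor cells carry these transcripts was not tested. The adipocyte markers summed to between 111 and 168 counts in control and between 79 and 106 in EV, nearly all of them Lpl, with Adipoq, Plin1, Cidec and Lep at 0. Macrophage markers did not exceed 5 counts and endothelial markers did not exceed 3 counts in any library.

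Each value below is the count listed under a gene. Actb, a transcript of every cell, had between 116 and 162 counts in control and between 36 and 79 in EV. Genes that share exon bases with a gene on the other strand are 24.8% of the 21034 genes matched to the annotation. They held between 52.5% and 53.9% of all counts in control and between 55.7% and 56.7% in EV. The groups thus differed in composition, and the part of this in the results was not tested. The library kit keeps strand, while the strand setting of the counting is not given in the sources used here, so whether a count comes from the gene's own transcript was not tested. In bulk cells, fewer cells carrying a transcript and less RNA per cell cannot be told apart.

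Zyx, Vasp, Itga5 and Tln1 fell in EV-treated cells, while Itgb1, Itgav, Vcl and Ilk did not pass the test and Pxn and Itgb5 had too few counts to be tested. By the fitted fold change, the level in EV was 28.7% of that in control for Zyx, 38.1% for Vasp, 39.2% for Itga5 and 51.2% for Tln1. Thus 4 of the 8 tested genes were past the threshold (edgeR's quasi-likelihood test with Benjamini-Hochberg adjustment, adjusted p under 0.05), all of them lower in EV, where 14.4% of all 5066 genes tested were called lower and 7.68% higher. In either direction 22.1% were called. The fold changes of the 8 genes had a median of -0.68 on the log2 scale, against 0.014 for all genes tested, and 7 of the 8 were below 0, against 48.8% of all genes. edgeR's filter keeps a gene with enough counts in 3 libraries. Of the 8, 4 (Zyx, Itga5, Itgav and Vasp) reached its level in every control library but not in every EV library. This held for 834 of all 5066 genes tested. It also held for 3 of the 4 genes called here, and for 322 of the 732 genes called lower over all genes. Of these 834 genes, 322 were thus called lower. The counts and the median above thus describe the genes that were tested and not all 10. The 10 genes were chosen with earlier results of these data known, and the study had listed Zyx as lower. The counts and the median, which include Zyx, are therefore no test of the set. The groups did not overlap for 3 of the 8, each lower in EV, where 21.5% of all genes tested had groups without overlap in this direction.

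**Figure D1:**
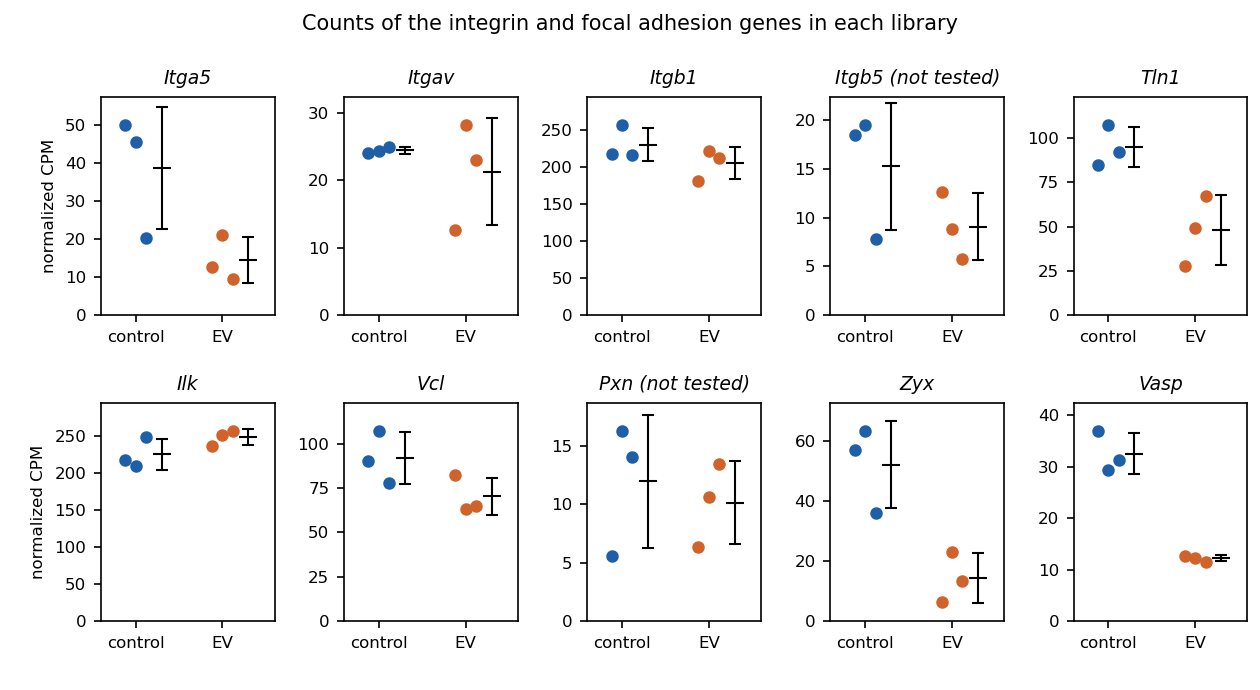
Normalized counts (counts per 1000000 counts of the tested genes, CPM, linear axes from 0) of each of the 10 genes in the 3 control (blue) and 3 EV (orange) libraries, with the mean and SD beside the points. The EV libraries lie below all control libraries for Zyx, Vasp and Tln1, and among or beside them for the other genes.

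Among the integrin subunits, Itga5 fell, while Itgb1 and Itgav did not pass the test, and the difference between these subunits was not tested. Itgb1 is the beta subunit shared by most receptors for fibronectin, collagen and laminin, and Itga5 is its partner in the classical fibronectin receptor. Itgb1 (Entrez 16412, chr8:128685654-128733579, + strand, GRCm38) had 118, 158 and 139 counts in control libraries 1, 2 and 3 and 86, 126 and 111 in EV libraries 1, 2 and 4. On the normalized scale these were 231 ± 22.8 CPM in control and 206 ± 21.1 in EV (SD, n = 3 each). The groups overlapped. The log2 fold change was -0.16, with a 95% interval from -0.44 to 0.11 and an adjusted p of 0.407 by the same test of edgeR.

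Itga5 (Entrez 16402, chr15:103344286-103366791, - strand) had 27, 28 and 13 counts in control and 6, 12 and 5 in EV, or 38.6 ± 16.0 CPM against 14.5 ± 5.98 (SD, n = 3 each). Control library 3, at 20.3 CPM, was far below the other control libraries and just under EV library 2, at 21.1 CPM, so the groups overlapped. Its log2 fold change was -1.35 (SE 0.36, 95% interval -2.07 to -0.63), with an adjusted p of 0.005 by edgeR's quasi-likelihood test. The call was lost with the DESeq2 Wald test (adjusted p = 0.0511) and in edgeR without control library 2 (log2 fold change -1.23, adjusted p = 0.0591) or without EV library 4 (log2 fold change -1.12, adjusted p = 0.056).

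Itgav, the alpha subunit of the vitronectin receptors, and Itgb5, one of its beta partners, had few counts. Itgav (Entrez 16410, chr2:83722303-83806917, + strand) had 13, 15 and 16 counts in control and 6, 16 and 12 in EV. The control libraries were close together, from 24.0 to 25.0 CPM, and EV lay on both sides of them, from 12.7 to 28.2 CPM. The log2 fold change was -0.17, and its 95% interval, from -0.85 to 0.51, leaves room for a fall as well as a rise (adjusted p = 0.749, edgeR's quasi-likelihood test). Itgb5 (Entrez 16419, chr16:33829665-33949338, + strand) had 10, 12 and 5 counts in control and 6, 5 and 3 in EV and was removed by edgeR's filter on low counts. A fit without the filter gave it a log2 fold change of -0.65 with a 95% interval from -1.57 to 0.28, and the groups overlapped.

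Tln1, or talin 1, links the beta tail to actin and brings integrins into their active state. Tln1 (Entrez 21894, chr4:43531513-43562583, - strand) had 46, 66 and 59 counts in control and 13, 28 and 35 in EV, or 94.8 ± 11.4 CPM against 48.0 ± 19.9 (SD, n = 3 each). All EV libraries were below all control libraries, and EV library 1 was the lowest. The log2 fold change was -0.97 (SE 0.22, 95% interval -1.42 to -0.52), with an adjusted p of 0.00131 by edgeR's quasi-likelihood test. Leaving out 1 library at a time moved it between -1.27 and -0.71, with adjusted p-values up to 0.0207.

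Ilk, the integrin-linked pseudokinase that holds PINCH and parvin at the beta tail, and Vcl, or vinculin, which binds talin and actin and strengthens the link under tension, did not pass the test. Ilk (Entrez 16202, chr7:105736590-105742925, + strand) had 118, 129 and 159 counts in control and 112, 143 and 134 in EV. Its groups overlapped at 225 ± 20.4 and 249 ± 10.6 CPM (SD, n = 3 each), and the log2 fold change of 0.14 had a 95% interval from -0.12 to 0.41 (adjusted p = 0.457, edgeR's quasi-likelihood test). Ilk was the only gene of the 8 tested with a fold change above 0. Vcl (Entrez 22330, chr14:20929383-21033676, + strand) had 49, 66 and 50 counts in control and 39, 36 and 34 in EV, or 92.0 ± 14.7 against 70.4 ± 10.5 CPM (SD, n = 3 each). EV library 1, at 82.4 CPM, lay above control library 3, at 78.1 CPM. The log2 fold change of Vcl was -0.39 with a 95% interval from -0.80 to 0.0085, and its adjusted p was 0.146 in edgeR's quasi-likelihood test.

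Pxn, or paxillin, is a scaffold that gathers kinases and exchange factors at new adhesions. Pxn (Entrez 19303, chr5:115491970-115555987, + strand) had 3, 10 and 9 counts in control and 3, 6 and 7 in EV, which was too few for the filter. The groups overlapped, and a fit that kept all genes with counts gave -0.17 on the log2 scale with a 95% interval from -1.10 to 0.76. A change of Pxn was not detectable at these counts, and its sign turned in some of the alternative fits.

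Zyx, a LIM protein that comes to adhesions and stress fibers under tension, and Vasp, which zyxin recruits and which promotes the growth of actin filaments, both fell. Among the 8 tested genes the fold change of Zyx was the lowest with all 6 libraries, and Vasp and Itga5 were not resolved from each other, with their order turning between fits. Zyx (Entrez 22793, chr6:42349511-42360213, + strand) had 31, 39 and 23 counts in control and 3, 13 and 7 in EV, or 52.2 ± 14.4 CPM against 14.2 ± 8.31 (SD, n = 3 each). Its lowest control library, at 35.9 CPM, was above its highest EV library, at 22.9 CPM. The log2 fold change was -1.80, with a 95% interval from -2.47 to -1.13 and an adjusted p of 6.22e-05 by the edgeR test. The study listed Zyx as lower in EV too, by a much smaller fold change, and the reason for this difference was not tested. Vasp (Entrez 22323, chr7:19256929-19271854, - strand) had 20, 18 and 20 counts in control and 6, 7 and 6 in EV, or 32.5 ± 3.98 CPM against 12.2 ± 0.60 (SD, n = 3 each). The libraries of each group were close together and the groups did not overlap. Its log2 fold change was -1.39 (SE 0.36, 95% interval -2.11 to -0.67), with an adjusted p of 0.00392 by edgeR's quasi-likelihood test. DESeq2 gave Vasp no adjusted p, because of its own filter on low counts, and gave Zyx 0.00267 and Tln1 0.0201, where it called 7.2% of the genes with an adjusted p lower in EV.

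**Figure D2:**
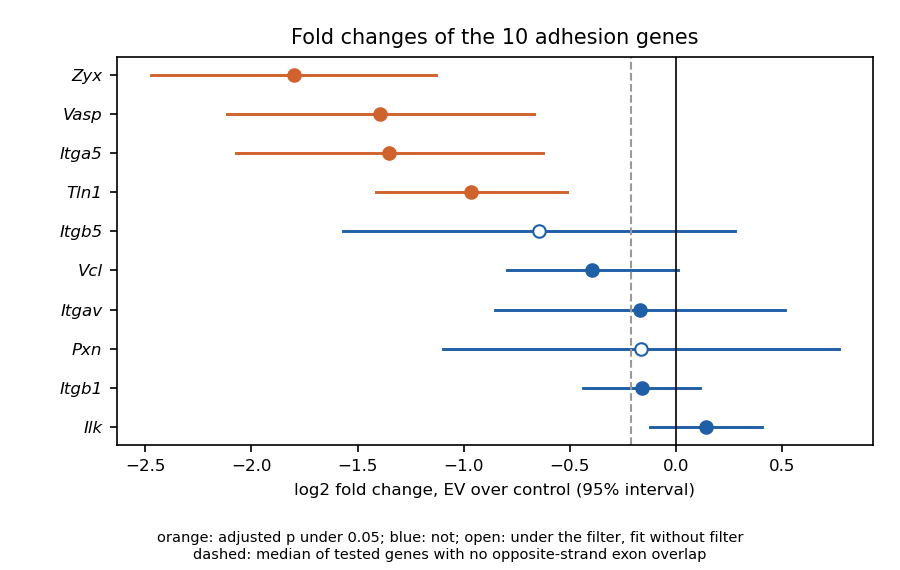
Log2 fold change of each gene, EV over control, with its 95% interval from edgeR's quasi-likelihood fit (orange, adjusted p under 0.05, blue, above it, open points, genes under the filter, fitted without it). The intervals of Zyx, Vasp, Itga5 and Tln1 lie below 0 and also below the median of the tested genes without an opposite-strand overlap (dashed, -0.21), and the other intervals include 0.

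Divided by exon length, the counts of the 10 genes covered a wide range in control. Ilk was highest at 82.1 CPM per kilobase and Itgb1 next at 56.5. The next were Vasp at 12.4, Vcl at 11.2, Zyx at 9.68, Tln1 at 9.67 and Itga5 at 7.82, and the lowest were Itgb5 at 4.30, Itgav at 2.28 and Pxn at 1.46. Ilk and Itgb1 did not overlap each other or the rest in the control libraries, at 76.4 to 90.5 and 53.2 to 63.0 CPM per kilobase. The order from Vasp to Itga5 was not resolved by the spread, since each neighbour overlapped the next. In EV the level of Vcl, at 8.59 CPM per kilobase, came next after Ilk and Itgb1, above Tln1 at 4.90, Vasp at 4.65, Itga5 at 2.93 and Zyx at 2.64.

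Whether the partners shared the change of Zyx was asked within each library, as the log2 ratio of the partner over Zyx in CPM plus 1. A partner that fell as much as Zyx would keep about the same ratio. The ratio was higher on average in EV for all 9 partners, as it was for 99.6% of the 5065 other genes tested, and its groups did not overlap for 6 of the 9 partners, against 82% of those genes. The counts are thus no sign of anything particular to the partners. For Ilk it was 1.91, 1.71 and 2.76 in control and 5.02, 3.40 and 4.16 in EV, a difference of 2.07. For Itgb1 it was 1.91, 2.00 and 2.56 in control and 4.64, 3.22 and 3.89 in EV, a difference of 1.76. The groups did not overlap for either gene, so that every EV library held more of each gene relative to Zyx than any control library did.

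The ratios of Pxn, Itgav, Vcl and Itgb5 over Zyx also had groups without overlap, with differences of 1.77, 1.66, 1.55 and 1.27. For these 6 partners the exact permutation test, two-sided, gave p = 0.1, which is the smallest that 3 against 3 libraries allow, and 0.15 after Benjamini-Hochberg adjustment over the 9 partners. The groups overlapped for Tln1, with a difference of 0.87 (exact permutation p = 0.2, adjusted 0.225), for Itga5, with 0.60 (exact permutation p = 0.2, adjusted 0.225), and for Vasp, with 0.58 (exact permutation p = 0.5, adjusted 0.5). For Vasp the ratio was -0.62, -1.09 and -0.20 in control and 0.90, -0.84 and -0.21 in EV, and EV library 1, where Zyx had 3 counts, stood apart from the others. Without EV library 1 the difference was 0.11 for Vasp, 0.21 for Itga5, 0.58 for Itgb5 and 0.98 for Vcl. For Vasp it was also 0.98 without EV library 2 and 0.36 without control library 2.

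The difference between the fold change of a partner and that of Zyx in the edgeR fit, with both errors treated as independent, was 0.41 for Vasp with a 95% interval from -0.58 to 1.39 and 0.45 for Itga5 with an interval from -0.54 to 1.43. These intervals include no difference from Zyx as well as a much smaller fall. For Tln1 the difference was 0.84, with an interval from 0.028 to 1.64. The intervals of Vcl (0.62 to 2.19), Itgb1 (0.91 to 2.36), Itgav (0.67 to 2.59) and Ilk (1.22 to 2.66) did not include 0. All of these share the counts of Zyx, so they are not independent of each other. The intervals are not adjusted, and the share of all genes with such an interval was not computed. The ratio to Zyx was higher on average in EV for 99.6% of the 5065 other genes tested. These intervals are thus no sign of anything particular to the partners.

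**Figure D3:**
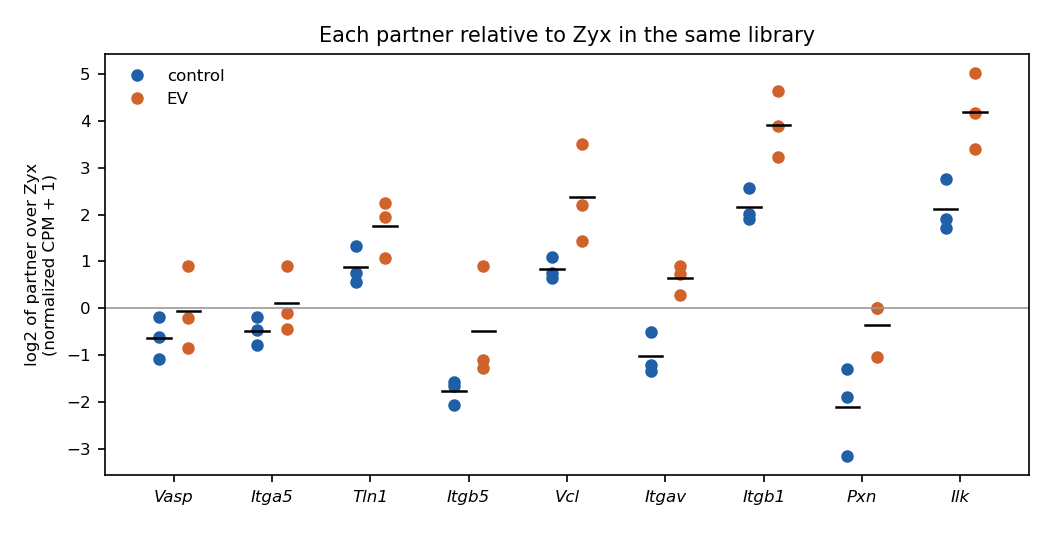
Log2 ratio of each partner over Zyx (normalized CPM plus 1) in the same library, for the 3 control (blue) and 3 EV (orange) libraries, with the group means as bars. The EV libraries lie above the control libraries for Ilk, Pxn, Itgb1, Itgav, Vcl and Itgb5, and the groups overlap for Tln1, Itga5 and Vasp.

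The 10 genes differ in how much of their exons is shared with a gene on the opposite strand in the GENCODE vM21 annotation. Pxn, Itgb1, Itga5, Itgb5 and Vasp share none. Zyx shares 236 bases (4.38% of its exons) with Epha1, Tln1 360 bases (3.67%) with Creb3, Itgav 634 bases (5.90%) with the noncoding transcript Gm13684 and Vcl 2090 bases (25.5%) with Ap3m1. For Ilk, 2106 bases are shared with Taf10 and 355 with Rrp8, together 89.7% of its exons, the largest share of the 10 genes.

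None of the 5 overlapping genes with a row in the table passed the test, and Gm13684 has no row matched to it. Epha1, an ephrin receptor, had 91, 95 and 110 counts in control and 65, 93 and 79 in EV, and its log2 fold change was -0.12 (adjusted p = 0.592, edgeR's quasi-likelihood test). Creb3, a membrane-bound transcription factor, had 27, 20 and 28 counts in control and 26, 33 and 29 in EV, where the normalized groups did not overlap and EV was higher (as for 17.9% of all genes tested), with a log2 fold change of 0.43 (adjusted p = 0.195, edgeR's quasi-likelihood test). Taf10, a subunit of the general transcription factor TFIID, had a log2 fold change of 0.20 and Rrp8, a nucleolar protein, one of 0.21, next to 0.14 for Ilk. Ap3m1, a subunit of the AP-3 adaptor, had 8 to 14 counts in a library, with a log2 fold change of -0.13.

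The background also differed by this property. Among the tested genes without such an overlap, 62.6% had a fold change below 0, with a median of -0.21, and 19.9% were called lower in EV. Among those with an overlap, the median was 0.13 and 9.49% were called lower. Of the 3 tested adhesion genes without an overlap, 2 fell (Itga5 and Vasp) and Itgb1 did not pass the test. Of the 5 with one, 2 fell (Zyx and Tln1), and these 2 had the smallest overlaps of the 5. When only genes without an overlap were fitted, Itga5 and Vasp kept adjusted p-values of 0.0124 and 0.0123 in edgeR's quasi-likelihood test, and Itgb1 had a log2 fold change of 0.026.

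**Figure D4:**
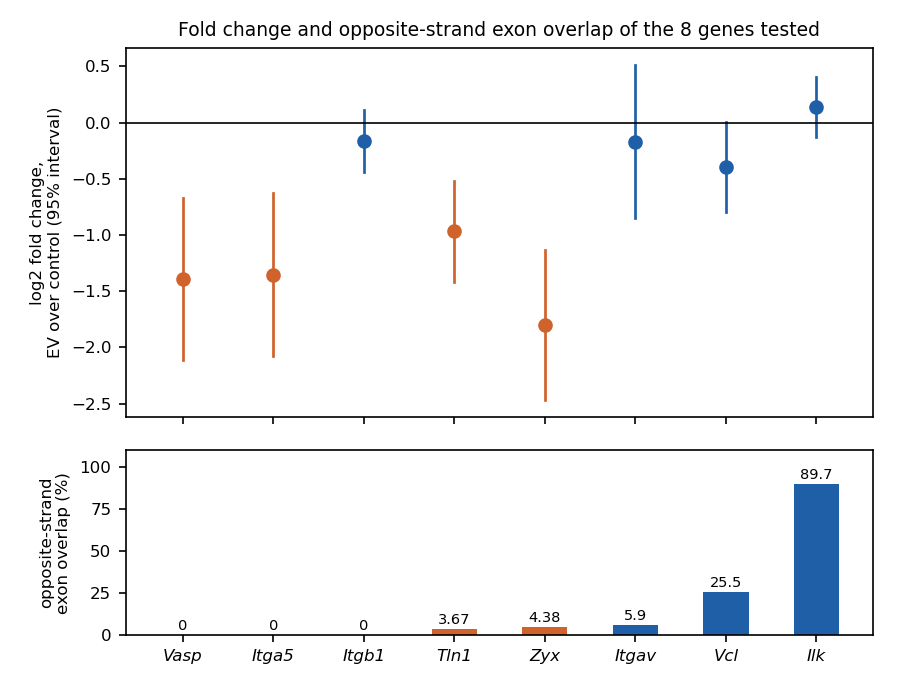
Upper panel, log2 fold change of the 8 tested genes with its 95% interval (orange, adjusted p under 0.05 in edgeR's quasi-likelihood test). Lower panel, percent of the exon bases that an exon on the opposite strand overlaps, from 0 for Vasp, Itga5 and Itgb1 to 89.7 for Ilk, where the 4 genes that fell lie between 0 and 4.38.

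The promoters of the 4 genes that fell are shown with that of Vcl, the one gene with a CArG box among the 9 whose promoter was searched, so that their composition can be compared. The sequences are from RefSeq on GRCm38.p6, 5′ to 3′ along the gene's strand, and positions count from the transcription start of the RefSeq window. For Zyx (chr6:42349728-42349827, + strand), Tln1 (chr4:43562584-43562683, - strand), Itga5 (chr15:103366792-103366891, - strand) and Vasp (chr7:19271855-19271954, - strand) they are the 100 bases before the start of the window, and for Vcl (chr14:20929158-20929307, + strand) the stretch from -240 to -91. For Zyx these 100 bases lie inside the gene span given above. Capitals mark GC boxes in Zyx and Itga5, and in Vcl the CArG box, bound by SRF, followed by the MCAT element, bound by TEAD factors, in its opposite-strand form.
Zyx: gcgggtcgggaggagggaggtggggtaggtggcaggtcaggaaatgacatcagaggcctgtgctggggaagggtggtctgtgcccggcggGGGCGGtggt
Tln1: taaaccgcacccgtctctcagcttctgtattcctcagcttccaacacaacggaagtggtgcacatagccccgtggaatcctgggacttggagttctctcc
Itga5: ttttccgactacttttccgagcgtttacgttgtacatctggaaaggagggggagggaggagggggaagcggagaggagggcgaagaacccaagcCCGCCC
Vasp: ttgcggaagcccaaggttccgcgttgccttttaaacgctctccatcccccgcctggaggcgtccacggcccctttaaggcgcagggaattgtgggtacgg
Vcl: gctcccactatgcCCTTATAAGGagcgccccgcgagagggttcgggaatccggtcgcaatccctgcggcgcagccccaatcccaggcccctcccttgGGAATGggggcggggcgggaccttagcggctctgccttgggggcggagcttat

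Windows from 250 bases before to 50 after the start were searched on both strands for 9 of the 10 genes, with 10 windows in all because Ilk has 2. The CArG box was in 1.63% of all 32851 windows and in that of Vcl, at -227 to -218. The MCAT element (CATTCC) was in 14.7% of all windows and in those of Vcl, at -143 to -138, and Itgb1, at -7 to -2. The GC box (GGGCGG), added after the sequences were seen, was in 35.7% of all windows and in those of 7 of the 9 genes, with Tln1 and Vasp without it. None of the 4 genes that fell had a CArG box or an MCAT element in its window, which says only that these letters are not in it. The windows of Zyx (chr6:42349578-42349877) and Itgav (chr2:83724147-83724446) lie inside the gene spans given above. The bases before these 2 spans were thus not searched.

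The rest of the adhesion machinery was described by 105 further genes in 8 lists by role. Of these, 49 were tested, 22 fell (44.9%, against 14.4% of all genes tested and 19.9% of those without an opposite-strand overlap), 1 rose, and the median log2 fold change was -0.58. Without the 16 matrix ligands, 36 were tested, 10 fell (27.8%), 1 rose and the median was -0.28, against 0.014 for all genes tested and -0.21 for those without an opposite-strand overlap. Of the 22 genes that fell, 17 were actin linkers or ligands, and differences between the lists were not tested. Of the 49 tested, 7 reached the level of edgeR's filter in every control library but not in every EV library. This held for 834 of all 5066 genes tested. Among the 7 were Spp1, Ccn1 and Dock1, which are counted as falls below.

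The actin linkers tie adhesions to the cytoskeleton, as Vcl does. Of the 9 listed beside Vcl, 8 were tested and 5 fell (62.5%), among them Flna, Flnc, Actn1 and Actn4, with a list median of -0.93. Flna, the filamin that crosslinks actin and binds integrin tails, had 186, 239 and 202 counts in control and 64, 111 and 86 in EV. These groups were far apart, and its log2 fold change was -1.07 (SE 0.14, adjusted p = 2.56e-08, edgeR's quasi-likelihood test). The alpha-actinin Actn1, which binds zyxin, had a log2 fold change of -1.08 (adjusted p = 0.000261, edgeR's quasi-likelihood test). Vcl, at -0.39, was above these 4 genes.

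None of the other 15 genes of the zyxin and Ena/VASP list was called. Only 4 of them were tested, Lpp, Ajuba, Enah and Pdlim5, with a median of -0.26. Lpp, the closest relative of zyxin, had a log2 fold change of -0.26 with a 95% interval from -0.60 to 0.082, and Enah, the relative of VASP, one of -0.31 with an interval from -0.68 to 0.064. For both, the EV libraries were below all control libraries, as for 21.5% of all genes tested, and neither passed the test. How these fold changes differ from those of Zyx and Vasp was not tested.

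In the complex of ILK, Parva, the parvin that joins ILK to actin, was the one further gene tested. It had 28, 40 and 39 counts in control and 12, 20 and 22 in EV. Parva fell by 0.78 on the log2 scale (adjusted p = 0.0209, edgeR's quasi-likelihood test). Its groups did not overlap, as for 21.5% of all genes tested in this direction. Of the 29 genes listed with Pxn, 15 were tested and 4 fell (26.7%, next to the 19.9% of genes without an overlap). They were Cav1, the caveolar coat protein (log2 fold change -0.73, adjusted p = 0.00193, edgeR's quasi-likelihood test), Dock1, a Rac exchange factor (-1.28), Asap1, an Arf GTPase-activating protein (-0.80), and the kinase Rock2 (-0.76). Ptk2, the focal adhesion kinase, had a log2 fold change of -0.069 with a 95% interval from -0.80 to 0.66.

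Of the 9 integrin regulators listed beside Tln1, 5 were tested, and how they differ from Tln1 was not tested. The 5, among them Rap1a, Rap1b, Fermt3 and Itgb1bp1, had a median of 0.45, and none passed the test in either direction. Of the 4 under the filter, Fermt2, a kindlin, had 10, 14 and 5 counts in control and 3, 5 and 0 in EV, and Sharpin had 6, 7 and 11 in control and 3, 3 and 5 in EV. Rap1a, a small GTPase that activates integrins through talin, had a log2 fold change of 0.45 with a 95% interval from 0.066 to 0.84 and did not pass the edgeR test (adjusted p = 0.0811). Among 15 further alpha subunits, 4 were at 0 in every library, and 3 were tested. Itga2b, the platelet fibrinogen receptor subunit, had 21, 35 and 38 counts in control and 51, 53 and 47 in EV. It rose by 0.89 on the log2 scale (SE 0.21, adjusted p = 0.00161, edgeR's quasi-likelihood test). Its groups did not overlap, as for 17.9% of all genes tested in this direction. Whether these counts come from Itga2b transcripts was not tested. None of the 6 further beta subunits had enough counts to be tested.

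The matrix ligands of these receptors held the highest share of called genes among the lists with more than 1 gene tested. Of 16 listed, 13 were tested and all 13 were below 0, 12 of them past the threshold, with Lamc1 the exception and a list median of -1.08. Under the filter, Tnc had 7, 6 and 8 counts in control and 9, 8 and 7 in EV. Ccn2, also under it, had 1, 1 and 2 in control and 2, 3 and 2 in EV. For both, the normalized groups did not overlap and EV was higher, at counts too low for a test. The study listed Tnc as lower in EV, and why the directions differ was not tested. Fn1, or fibronectin, the ligand of the receptor that Itga5 and Itgb1 form, had 391, 440 and 391 counts in control and 134, 177 and 174 in EV. This was the most significant change of the lists, with a log2 fold change of -1.14 (SE 0.11, adjusted p = 1.73e-11, edgeR's quasi-likelihood test). The collagen chains Col1a1 and Col1a2 had log2 fold changes of -1.18 and -1.06 (adjusted p = 5.97e-09 and 1.24e-08, edgeR's quasi-likelihood test), and Spp1, or osteopontin, had the lowest of the list at -1.91. Vtn, or vitronectin, the ligand of the receptor that Itgav and Itgb5 form, was at 0 in every library. Col1a1, Col1a2 and Col3a1 are also among the fibroblast markers, so the ligand list and the marker sum are not independent.

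**Figure D5:**
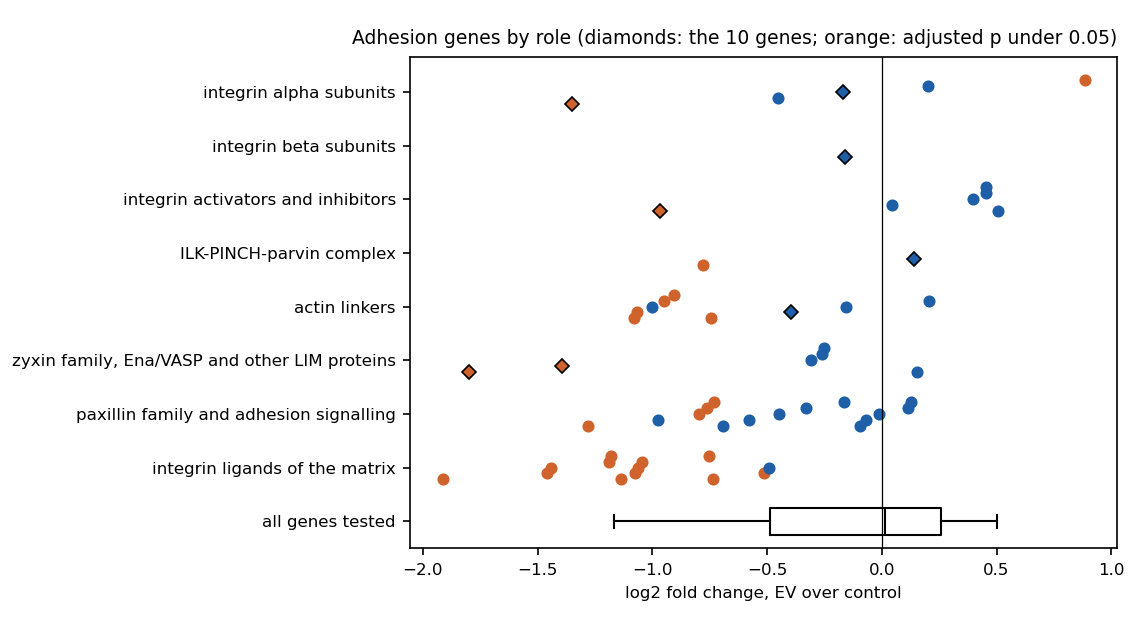
Log2 fold change, EV over control, of every tested gene of the 8 adhesion lists (circles) and of the 8 tested genes of the set in their lists (diamonds, orange where the adjusted p is under 0.05), with all 5066 tested genes as a box below (quartiles, whiskers from the 5th to the 95th percentile). The 13 tested matrix ligands lie below 0, the 5 further integrin regulators tested lie above it, and the actin linkers lie on both sides with 5 called lower.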

How the data were processed

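Libraries of 3T3-L1 cells treated with EVs or a control preparation (3 each) were made with a stranded mRNA kit. Reads were aligned to mm10 (GRCm38) with STAR and assigned to genes with Rsubread by the authors, and the deposited values are whole-number counts, not normalized. Tool versions and the strand setting are not given in the sources used here. The counts were fitted in R 4.3.3 with the quasi-likelihood method of edgeR 4.0.16 (filterByExpr, then TMM, estimateDisp, glmQLFit and glmQLFTest), with no covariate. Of 23725 genes, 5066 passed the filter, and the Benjamini-Hochberg adjustment ran over these. Normalized CPM divide a count by the summed counts of the tested genes times the TMM factor. Each SE was obtained from the log2 fold change and the F statistic of its gene. The biological coefficient of variation was 0.0779. No pair of replicates held the same counts deposited again (chi-square over degrees of freedom 1.15 to 1.76). These values cannot tell separate libraries from splits of 1 library, because no such split was at hand for comparison. Ratios to Zyx used a pseudocount of 1 CPM and were compared with an exact permutation test (scipy 1.17.1).

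Symbols came from RefSeq (99.8% of identifiers), and exon lengths and overlaps from GENCODE vM21 (88.7%). The fits were tested on simulated data. Alternatives were other size factors, other filters, DESeq2 1.42.0, the legacy and robust fits, a replicate block, genes without an opposite-strand overlap, other pseudocounts and each library left out. Besides the 10 genes, the genes overlapping them and up to 3 called genes per list with the lowest adjusted p were named, and other genes were named after their values were seen. A gene that this rule named is not reported here. The 10 genes and the lists were chosen with earlier results of these data known. Reads and the study's proteomics were not analysed here.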

Additional observations from a re-analysis of the deposited data

How the results depend on the processing

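Of the 10 genes, 4 passed the threshold, and the count was 1 when at least 10 counts were required in every library (of the 4 genes that fell, only Tln1 was then tested), 2 with DESeq2, 2 when only genes without an opposite-strand overlap were fitted, and between 3 and 4 with 1 library left out. For the adhesion lists the count of 23 became 15 with DESeq2, 13 without overlapping genes, and between 18 and 24 with 1 library left out. Over all genes, 1121 passed (732 lower, 389 higher), against 632 (487 and 145) with at least 10 counts, 539 (294 and 245) with DESeq2 and 554 (319 and 235) without overlapping genes. With the total library size alone 90 were higher, 970 lower and the median of all genes was -0.12. Leaving out 1 library gave between 496 and 1120 genes, 420 to 794 lower and 76 to 341 higher.

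Among the 10 genes the sign turned for Pxn without overlapping genes (0.0101), when control library 2 (0.1333), control library 3 (0.0368) or EV library 1 (0.064) was left out, for Itgb1 without overlapping genes (0.0258), and for Itgav without EV library 1 (0.0695), and the cause was not tested. With 1 library left out Pxn lay between -0.41 and 0.13 and Itgav between -0.43 and 0.07. None of these was called. Zyx, Tln1 and Vasp kept their call in every fit that gave them an adjusted p. With 1 library left out Zyx lay between -2.34 and -1.49, and the differences between the partners and Zyx kept their sign but not their size (0.11 to 0.98 for Vasp, 0.21 to 0.88 for Itga5, 0.58 to 1.67 for Itgb5, 0.98 to 2.02 for Vcl, the lowest in each case without EV library 1). The labels share only the numbers 1 and 2 between the groups, and the correlations of deviations within these numbers were 0.071 and 0.063. With the replicate block, 4 of the 10 genes, 25 list genes and 1119 genes in all passed, with -1.97 for Zyx. At these depths genes such as Pxn and Itgb5, with 3 to 12 counts, allow no statement on a change.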
